A study of Mus musculus with 40 samples.

Results

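Solute carrier genes were followed through the response of mouse macrophages to lipopolysaccharide (LPS), in cells with and without a Cre that deletes the floxed gene Otulin. The members are the genes whose symbol begins with Slc, a family number, the letter a and a member number, with pseudogenes and 8 genes of glycolysis, arginine and cystine uptake and iron handling left out. Of 338 symbols that matched, 184 averaged under 2 CPM, the count scaled to the library's size, over the 40 libraries. Of these 184, 60 had no count in any library. That left 154 members out of 11424 genes at or above 2 CPM. Just inside the limit lay Slc22a18 with a mean of 2.25 CPM and Slc22a21 with 2.18 CPM, and just outside it Slc9a5 with 1.96 CPM and Slc15a2 with 1.55 CPM. In all 10 groups 134 members had a mean of at least 2 CPM, and 20 fell under it in at least 1 group. A member that is low at 0 h was kept only because it was high later, so its rise is partly set by the limit.

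The cells were primary macrophages grown from bone marrow in L929-conditioned medium, which supplies M-CSF. All mice carried the floxed Otulin alleles. The WT groups were OtulinFL/FL without Cre, and the KO groups were OtulinFL/FL LysMCreTg/WT, in which the LysM promoter drives Cre in myeloid cells. Otulin encodes a deubiquitinase that takes apart linear ubiquitin chains. Each genotype was sampled without LPS, at 0 h, and 3, 6, 12 and 24 h into treatment with 500 ng/ml of Salmonella minnesota LPS, in 4 biological replicates per group. No group carried Cre without floxed alleles, so Cre itself and the loss of Otulin cannot be told apart.

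Solute carriers are membrane proteins that move small molecules across the plasma membrane and the membranes of organelles, by facilitated diffusion or by coupling to an ion gradient. They are grouped in families by sequence, and a family often shares a kind of substrate: amino acids, sugars, nucleosides, metals, inorganic ions or the intermediates that mitochondria exchange with the cytosol. Activated macrophages are known for changes in glucose, glutamine, arginine, zinc and copper handling, all of which pass through such carriers. By family the 154 members comprised 34 mitochondrial carriers, 23 carriers of metals and haem, 22 of amino acids, 22 of organic acids, vitamins and organic ions, 21 of inorganic ions, 13 of sugars, 5 of nucleotide sugars, 3 of nucleosides, 3 of lipids, 3 vesicular carriers and 2 of peptides. The remaining 3, Slc9a3r1, Slc4a1ap and Slc7a6os, carry a solute carrier symbol but encode no transporter.

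Together the members held 1.18% of all counts. Library totals ran from 3615155 to 6829303 counts, so 2 CPM corresponds to 8.94 counts in a library of the median total. All 8 macrophage markers were present in every library, while the red cell gene Alas2 was at 0 in all 40. Otulin tags, at 27.5 to 51.6 CPM over all libraries, do not check the deletion, because a 3′ tag can lie outside the deleted part. In GENCODE another gene lies over the 3′ end of 23 members, a protein-coding one for 15, which makes their levels less certain. Among members described below these include Slc5a3, Slc7a5, Slc7a7, Slc15a3, Slc16a6, Slc19a1, Slc31a1, Slc35a3 and Slc48a1. The summed level of 6 monocyte markers moved with LPS, from 128.1 to 172.5 CPM in WT at 0 h to 436.4 to 598.0 CPM at 6 h, and its part in the responses was not tested. In bulk RNA, fewer cells of a type and less RNA per cell cannot be told apart. Levels below are CPM scaled by TMM, a change passed the test ("rose" or "fell") at an adjusted p below 0.05 in edgeR's quasi-likelihood test over all genes, and log2 fold changes are given ± SE.

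The response to LPS was wide and went both ways. After 3 h in WT, 40 members rose and 40 fell, where 26.6% and 28.0% of all 12151 genes tested did so. That was 51.9% of members called, against 54.6% of all genes. After 6 h, 42 rose and 67 fell, or 70.8% of members, against 68.1% of all genes, 31.0% higher and 37.1% lower. After 12 h, 54 rose and 56 fell, 71.4% of members against 68.2% of all genes, 32.3% higher and 35.9% lower. After 24 h, 60 rose and 57 fell, 76.0% of members against 69.9% of all genes, 34.5% higher and 35.4% lower. At each time the share of members was near the share of all genes. Between 3 h and 24 h, 60 members rose and 48 fell, while 68.4% of all genes were called, 33.9% higher and 34.5% lower.

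In KO macrophages the counts were much alike. At 3 h 33 members rose and 35 fell (all genes 48.6% called, 22.9% higher and 25.7% lower). At 6 h 38 rose and 66 fell, while 64.7% of all genes were called, 28.7% higher and 36% lower. At 12 h 50 rose and 58 fell (all genes 64.8%, 30.7% and 34.0%), at 24 h 59 rose and 58 fell (all genes 65.8%, 32.8% and 33.0%), and from 3 h to 24 h 60 rose and 48 fell (all genes 64.8%, 32.6% and 32.2%). Both genotypes called the same member the same way 63 times at 3 h, which is 78.8% of the WT calls and 92.6% of the KO calls. Of all genes tested in both, 80.5% and 90.5% of the calls were shared in this way. At 24 h the number was 111, or 94.9% of the calls of each, against 86.5% and 92.1% over all genes. No library is shared by these 2 sets of comparisons.

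The time of the highest mean differed from gene to gene. In WT, 42 of the 154 members were highest before LPS, 28 at 3 h, 20 at 6 h, 27 at 12 h and 37 at 24 h. The lowest mean lay at 6 h for 45 members and at 0 h for 43. The class plot places each member by its change at each time.

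**Figure D1:**
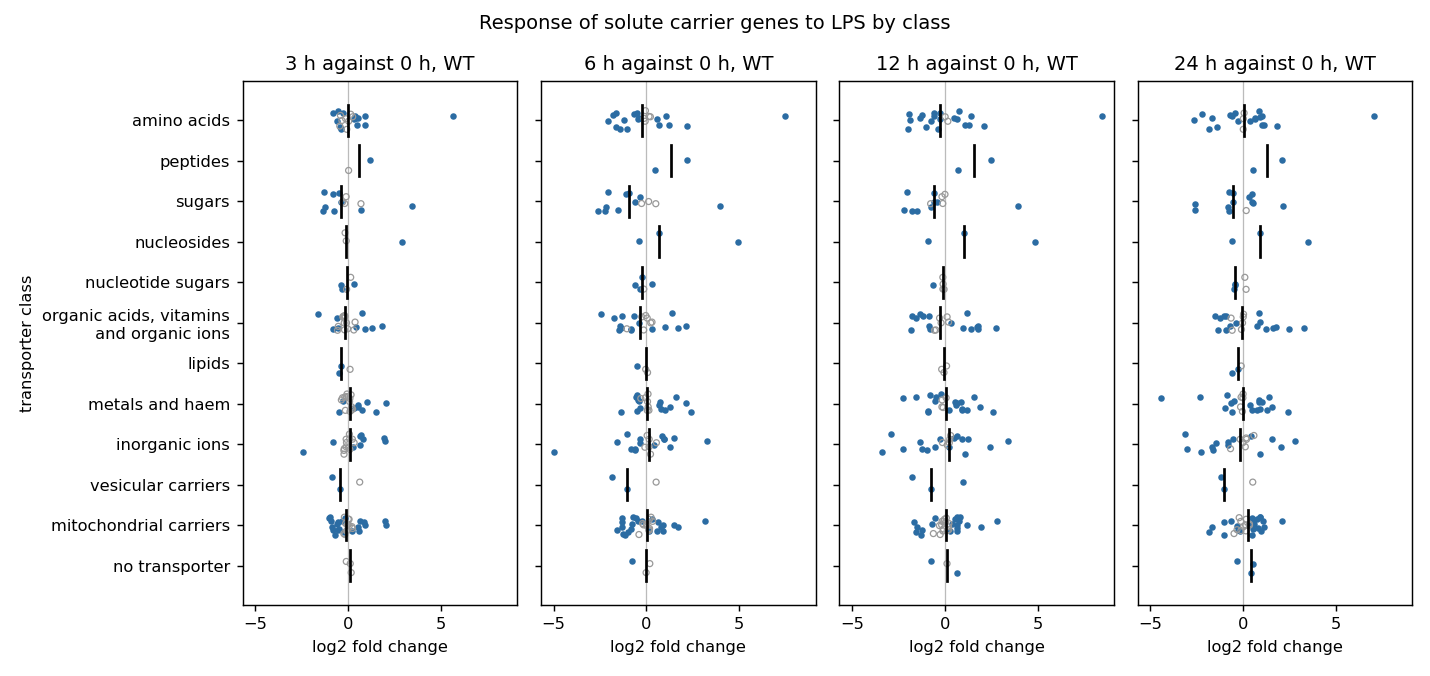
Log2 fold change of each of the 154 solute carrier genes in WT macrophages at 3, 6, 12 and 24 h against 0 h, by transporter class. Filled points passed the test, open points did not, black bars mark the class median, and points are spread vertically only to separate them. Sugar carriers lie mostly to the left of 0 at 6 h, when 9 of 13 fell and 1 rose, and both peptide carriers lie to the right. The point farthest to the right in the amino acid row is Slc6a4, whose size is uncertain because WT cells at 0 h held 1 count of it.

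Among nucleoside carriers, Slc28a2 reached the largest rise in WT of any member apart from Slc6a4, which was near 0 before LPS, and it was the only member called between genotypes. Slc28a2 encodes the sodium-coupled CNT2, which concentrates purine nucleosides and uridine. In WT it stood at 23.1, 24.8, 29.9 and 23.7 CPM before LPS and at 131.9, 170.7, 209.2 and 249.8 CPM after 3 h. The 6 h libraries held 652.3, 923.2, 839.4 and 711.9 CPM, those of 12 h 759.5, 855.7, 850.7 and 504.9 CPM, and those of 24 h 276.3, 376.8, 295.1 and 188.0 CPM. Every WT library after LPS was above every WT library before it. The log2 fold change was 2.90 ± 0.25 at 3 h (adjusted p = 2.5e-08), 4.94 ± 0.26 at 6 h (adjusted p = 1.5e-11), 4.87 ± 0.26 at 12 h and 3.48 ± 0.25 at 24 h.

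In KO, Slc28a2 stood at 1265, 1186, 1247 and 1223 CPM at 6 h. All 4 KO libraries were therefore above all 4 WT libraries at that time. The KO mean was 1230.5 ± 34.1 CPM and the WT mean 781.7 ± 122 CPM (SD, n = 4 each), a log2 fold change of 0.64 ± 0.09, or 1.56-fold (adjusted p = 0.0027). It was the 1 member called of 141 tested at 6 h, 0.709%, against 1.01% of all 10518 genes tested, 0.837% higher and 0.171% lower. DESeq2 called the same gene with an adjusted p of 6.6e-08.

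The same gene was not called between genotypes at other times. Its KO and WT means were 28.2 and 25.4 CPM at 0 h, 236.1 and 190.4 CPM at 3 h, 980.9 and 742.7 CPM at 12 h, and 265.9 and 284.0 CPM at 24 h. The test of whether the 6 h response itself differed, an interaction test with 16 libraries, gave a difference of 0.50 ± 0.16 on the log2 scale and did not pass (unadjusted p = 0.0044, adjusted p = 0.87). In 1 fit of all 40 libraries the 6 h difference was 0.65 with an adjusted p of 0.084. At 6 h the summed level of 6 osteoclast markers also did not overlap, with 166.2 to 232.2 CPM for KO against 115.2 to 165.1 CPM for WT and 1 of the 6 at 0 in each group. The same sum was also apart at 12 h (105.5 to 123.9 against 65.83 to 100.8 CPM) and 24 h (95.26 to 125.4 against 54.95 to 92.37 CPM), when Slc28a2 was not called, and overlapped at 0 h and 3 h. Most of the sum was Atp6v0d2, at 36.3 to 272 CPM over all libraries, where the next highest, Acp5, reached 32.8 CPM. Of the 4 osteoclast markers tested at 6 h, only Ctsk was called, higher in KO. Of the 8 macrophage markers, only Lyz2, the locus that carries the Cre, was called at 6 h (-0.44 ± 0.08, adjusted p = 0.0075), and the median of the list was 0.08. The part of these in the Slc28a2 result was not tested.

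A close copy, Gm14085, which RefSeq names Slc28a2b, could share tags with Slc28a2, and how tags that match both were assigned is not given in the sources used here. The level assigned to it was far lower, with a 6 h mean of 14.3 ± 2.16 CPM for KO and 10.5 ± 1.78 CPM for WT (SD, n = 4 each). The other nucleoside carriers are equilibrative. Slc29a3, the lysosomal ENT3, rose in WT from 159.3 ± 5.06 CPM at 0 h to 329.8 ± 44.0 CPM at 12 h (1.04 ± 0.09, adjusted p = 8.8e-11). Slc29a1, the plasma membrane ENT1, fell from 29.2 ± 1.51 to 15.4 ± 3.28 CPM over the same time (-0.92 ± 0.14, adjusted p = 2.2e-06).

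**Figure D2:**
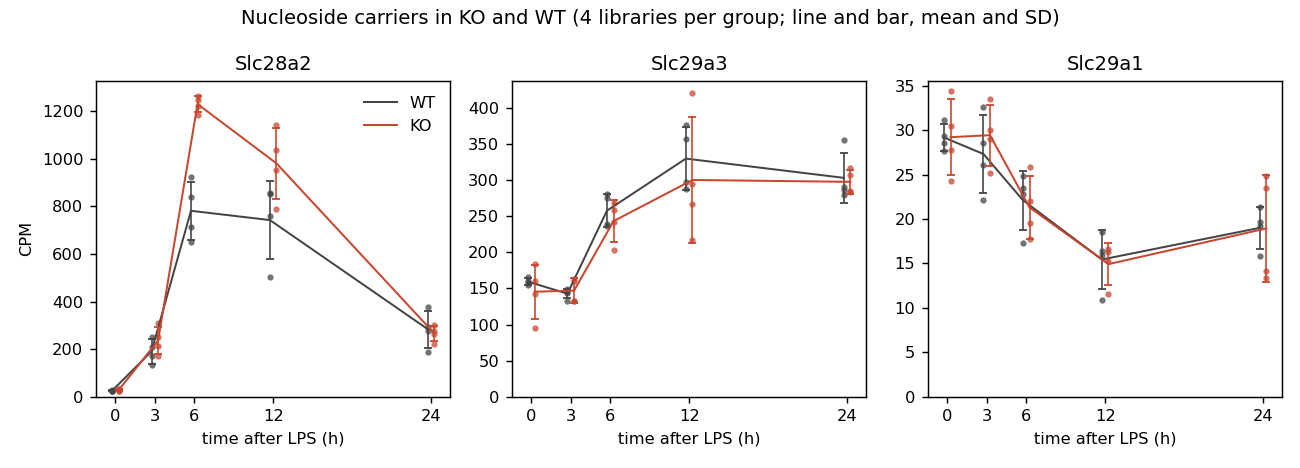
CPM of the 3 nucleoside carriers by hours after LPS in KO (red) and WT (grey). Each point is a library, and lines and bars give the mean and SD of 4. Slc28a2 at 6 h sits between 1186 and 1265 CPM in KO and between 652.3 and 923.2 CPM in WT, while the genotypes lie together for Slc29a3 and Slc29a1.

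After Slc6a4, Slc28a2 and Slc2a6 were the members with the largest rise at any WT time, and the 250 bases before the start of each, from RefSeq on GRCm38.p6, are shown for that reason. Slc28a2 is at chr2:122426185-122426434 on the plus strand and Slc2a6 at chr2:27027999-27028248 on the minus strand. Slc37a2, at chr9:37255739-37255988 on the minus strand, is shown as a sugar carrier that fell. The RefSeq start of Slc28a2 lies 42 bases upstream of the nearest GENCODE start, while those of Slc2a6 and Slc37a2 coincide with one.
Slc28a2: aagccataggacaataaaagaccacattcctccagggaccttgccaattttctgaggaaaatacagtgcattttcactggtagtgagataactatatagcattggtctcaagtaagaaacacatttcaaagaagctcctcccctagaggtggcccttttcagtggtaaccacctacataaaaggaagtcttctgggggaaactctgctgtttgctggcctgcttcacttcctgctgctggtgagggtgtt
Slc2a6: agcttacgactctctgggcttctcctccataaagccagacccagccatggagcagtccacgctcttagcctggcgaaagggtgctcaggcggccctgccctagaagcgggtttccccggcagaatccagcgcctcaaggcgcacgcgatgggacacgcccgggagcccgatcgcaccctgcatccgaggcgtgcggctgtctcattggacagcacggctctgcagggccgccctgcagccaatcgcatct
Slc37a2: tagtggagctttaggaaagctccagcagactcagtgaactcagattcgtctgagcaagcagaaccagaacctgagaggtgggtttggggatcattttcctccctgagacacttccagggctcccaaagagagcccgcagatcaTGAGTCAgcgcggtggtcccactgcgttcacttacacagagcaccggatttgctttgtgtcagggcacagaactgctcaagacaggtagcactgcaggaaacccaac
Capitals mark a match to any of 8 motifs searched on both strands: AP-1 TGACTCA, CRE TGACGTCA, the C/EBP-ATF response element TGATGCAA, GAS TTCCNGGAA, ISRE, NF-kB, the E-box CACGTG and the metal response element TGCACNC. Slc37a2 holds an AP-1 match 107 to 101 bases before its start, read on the other strand, and the windows of Slc28a2 and Slc2a6 hold no match, which says only that these letters are not in them.

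The table matched 118 members, with 159 windows. The E-box, bound by basic helix-loop-helix factors, occurred in 23 member windows, or 14.5%, and in 6.02% of all 32851 windows. The metal response element occurred in 21 member windows, 13.2%, and in 10.4% of all. AP-1 letters were in 4 member windows, against 4.46% of all windows, CRE in 3 (1.55% of all), the C/EBP-ATF response element in 2 (0.791%), ISRE in 1 (0.569%), NF-kB in 1 (0.356%) and GAS in none (0.913%). The windows of all genes were not limited by level, as the members were, and a gene can have several windows. The counts and shares are descriptions of the letters and were not tested.

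Amino acid carriers went both ways. Of 22 members, 8 rose and 6 fell in WT at 3 h, 6 rose and 11 fell at 6 h, 8 and 12 at 12 h, and 10 and 9 at 24 h. The class median at 24 h was 0.02 on the log2 scale, against -0.02 over all genes. In KO at 24 h, 10 rose and 8 fell. As the class goes by family number, these counts include Slc6a4, Slc6a8 and Slc43a3, which carry serotonin, creatine and purine nucleobases. They also include the heavy chain Slc3a2.

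Slc3a2 encodes CD98, the glycoprotein heavy chain that brings several Slc7 light chains to the membrane. In WT it stood at 221.5, 204.1, 218.2 and 202.7 CPM before LPS, at 337.5, 286.5, 272.9 and 292.5 CPM at 3 h and at 470.2, 433.1, 428.6 and 393.4 CPM at 24 h. Libraries before and after LPS did not overlap. The rise was 0.49 ± 0.08 at 3 h (adjusted p = 1e-05), 1.09 ± 0.08 at 12 h and 1.02 ± 0.08 at 24 h (adjusted p = 1.7e-11). KO averaged 223.9 CPM at 0 h and 437.1 CPM at 24 h.

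The light chains that pair with CD98 did not move together. Slc7a8, the neutral amino acid exchanger LAT2, rose from 203.3 ± 4.00 to 532.1 ± 50.6 CPM at 12 h in WT (1.38 ± 0.07, adjusted p = 3.5e-15). Slc7a7, y+LAT1, which exports cationic amino acids, rose from 10.5 ± 0.616 to 25.5 ± 2.17 CPM at 12 h (1.27 ± 0.12, adjusted p = 6e-10). Its 3′ end overlaps Oxa1l on the opposite strand, so its level is less certain. Slc7a5, the large neutral amino acid exchanger LAT1, held 35.2, 27.3, 43.5 and 32.4 CPM before LPS and 8.77, 6.45, 8.82 and 5.28 CPM at 24 h, with no overlap (-2.22 ± 0.25, adjusted p = 1.6e-07). Slc7a6, y+LAT2, fell from 16.0 ± 0.631 to 4.52 ± 1.54 CPM at 6 h (-1.79 ± 0.27, adjusted p = 2.9e-06).

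Several uptake carriers of the plasma membrane ended lower. Slc1a5, the glutamine and neutral amino acid exchanger ASCT2, fell from 55.9 ± 5.50 to 14.3 ± 2.85 CPM at 12 h (-1.97 ± 0.13, adjusted p = 3e-13). Slc38a2, the system A carrier SNAT2, fell from 159.7 ± 10.2 to 50.7 ± 3.7 CPM at 6 h (-1.66 ± 0.11, adjusted p = 2.7e-13). Slc38a1, SNAT1, first rose from 158.3 ± 5.93 to 303.3 ± 22.9 CPM at 3 h and then fell to 104.5 ± 5.68 CPM at 24 h. Slc7a1, the cationic amino acid carrier CAT1, did likewise, with a change of 0.54 ± 0.13 at 3 h (adjusted p = 0.00092) and -1.69 ± 0.14 at 24 h (adjusted p = 3.9e-10).

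Carriers of lysosomes and of specialised substrates followed other courses. Slc38a9, the lysosomal arginine sensor upstream of mTORC1, fell at 3 h (-0.52 ± 0.10) and rose at 24 h (0.83 ± 0.09). Slc36a1, a lysosomal proton-coupled exporter, fell from 125.7 ± 15.0 to 41.0 ± 5.97 CPM at 6 h and was back at 129.9 ± 11.7 CPM at 24 h. Slc43a2, the facilitative carrier LAT4, stood at 312.2, 308.4, 292.8 and 327.8 CPM before LPS, dipped to 84.6, 79.1, 70.3 and 63.9 CPM at 6 h and reached 419.0, 353.7, 414.4 and 433.6 CPM at 24 h. It therefore fell at 6 h (-2.06 ± 0.09, adjusted p = 3.9e-17) and ended above its start (0.38 ± 0.08, adjusted p = 0.00015).

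Within the Slc6 family, Slc6a6, the taurine carrier and the most abundant member, rose from 1120 ± 63.4 to 1725 ± 135 CPM at 24 h in WT (0.62 ± 0.09, adjusted p = 2e-06). Levels from 3′ tags are not scaled to transcript length, but how molecular identifiers were treated is not given. Levels of different genes can therefore be compared only roughly. Slc6a8, the creatine carrier, fell at all 4 times, by 0.60 ± 0.09 on the log2 scale at 12 h. Slc6a4, the serotonin transporter, held 1 count over the 4 WT libraries at 0 h and 391 counts at 12 h, a ratio of rates of 439 (95% exact interval 78.3 to 17400, counting error only). Its 12 h levels were 22.6, 27.4, 23.0 and 16.1 CPM in WT and 20.9, 21.6, 18.3 and 23.9 CPM in KO. Slc6a19, the neutral amino acid carrier B0AT1 of epithelia, rose to 3.55 ± 0.461 CPM at 6 h from 0.757 ± 0.264 CPM. Both Slc6a4 and Slc6a19 were under 2 CPM at 0 h, so their rises are partly set by the limit for members. Slc43a3, of the LAT4 family but a purine nucleobase carrier, rose only at 24 h among the 4 times, to 66.01 ± 9.96 CPM from 35.8 ± 2.06 CPM.

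Genes of the amino acid response and of mTORC1 sensing, 20 listed and 18 tested, moved both ways. In WT 3 rose and 7 fell at 3 h, while 8 were higher and 9 lower at 24 h. The 8 higher at 24 h were Castor2, Ddit3, Lamtor1, Nupr1, Rraga, Rragc, Sesn2 and Trib3. Asns, which makes asparagine, rose by 0.35 ± 0.11 at 3 h and was lower by 24 h (-1.77 ± 0.13). The serine synthesis enzymes Phgdh and Psat1 were also lower at 24 h (-2.87 ± 0.13 and -1.37 ± 0.10), as was the mitochondrial serine enzyme Shmt2 (-3.09 ± 0.22). Atf4, the transcription factor of this response, changed by 0.80 ± 0.09 at 12 h (adjusted p = 5.9e-09).

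**Figure D3:**
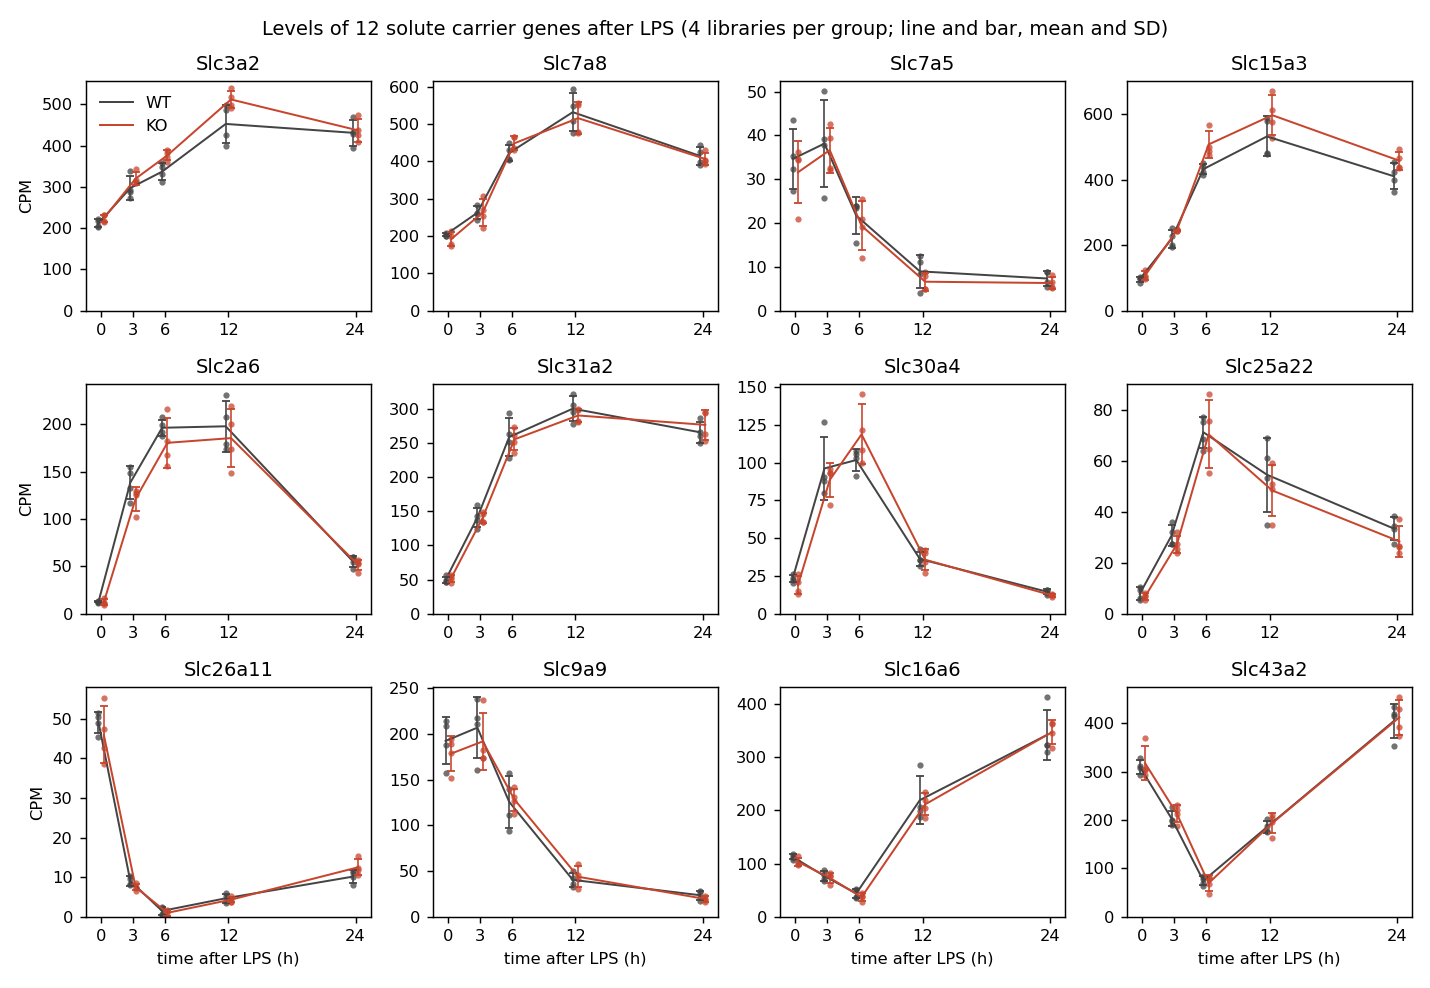
CPM of 12 solute carrier genes by hours after LPS in KO (red) and WT (grey). Each point is a library, and lines and bars give the mean and SD of 4. Slc3a2, Slc7a8, Slc15a3 and Slc31a2 climb to 12 h and stay above their start, Slc7a5 and Slc9a9 decline, and Slc16a6 and Slc43a2 dip at 6 h and end above their start.

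Both peptide carriers rose. Slc15a3 and Slc15a4 export histidine and small peptides, including bacterial muropeptides, from endolysosomes. Slc15a3 stood at 101.0, 85.0, 95.9 and 102.0 CPM in WT before LPS, at 227.3, 194.9, 199.6 and 253.6 CPM at 3 h and at 590.2, 580.5, 481.2 and 478.1 CPM at 12 h. Each later group lay above the earlier one without overlap. The change was 1.18 ± 0.09 at 3 h (adjusted p = 3.1e-11), 2.46 ± 0.10 at 12 h and 2.09 ± 0.09 at 24 h.

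In KO the means of Slc15a3 were 107.1, 245.0, 508.1, 597.5 and 458.1 CPM over the 5 times. At 6 h KO and WT did not overlap (0.22 ± 0.07), but the difference did not pass the test (adjusted p = 0.22). Its 3′ end overlaps Tmem132a on the opposite strand, and how strand was handled in counting is not given in the sources used here. Slc15a4 rose less, from 102.2 ± 3.68 to 168.9 ± 13.1 CPM at 12 h (0.72 ± 0.08, adjusted p = 9.1e-09).

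Sugar carriers mostly fell, with Slc2a6 as the main exception. Of 13 members, 2 were higher and 7 lower in WT at 3 h, 1 and 9 at 6 h, 1 and 8 at 12 h, and 5 and 7 at 24 h. The class median at 6 h was -0.93, against -0.09 over all genes. In KO at 6 h, 2 rose and 7 fell. The class goes by family number, and 1 of those that fell at each WT time is Slc5a6, a carrier of biotin and pantothenate. Slc2a1 was left out by the selection.

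Slc2a6 encodes GLUT6, a hexose carrier family member found on lysosomes. It held 13.3, 12.8, 12.8 and 11.5 CPM in WT before LPS, 149.2, 116.8, 133.0 and 154.8 CPM at 3 h and 187.8, 191.8, 207.4 and 198.9 CPM at 6 h. By 24 h it was at 59.99, 47.2, 59.5 and 54.7 CPM, still above every library before LPS. The change was 3.44 ± 0.11 at 3 h (adjusted p = 3e-19), 3.95 ± 0.11 at 6 h and 2.13 ± 0.12 at 24 h. KO means were 12.1 CPM at 0 h and 180.6 CPM at 6 h.

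Slc37a2, a sugar-phosphate and phosphate exchanger of the endoplasmic reticulum, stood at 165.7, 144.2, 145.8 and 172.6 CPM before LPS and at 33.7, 28.5, 34.7 and 35.99 CPM at 6 h. That was a fall of all 4 libraries below all 4 earlier ones (-2.25 ± 0.11, adjusted p = 5.7e-16), and at 24 h it was at 93.0 ± 8.99 CPM. Slc2a3, the glucose carrier GLUT3, fell from 7.75 ± 0.714 to 1.24 ± 0.387 CPM at 6 h and was at 8.71 ± 1.32 CPM at 24 h. Slc45a4, of a family of proton-coupled sugar carriers, fell by 2.16 ± 0.16 at 6 h. Slc5a3, the myo-inositol carrier, rose at 3 h (0.70 ± 0.22, adjusted p = 0.0094) and fell to 1.57 ± 0.489 CPM at 24 h from 9.62 ± 1.79 CPM. It shares its 3′ end with Mrps6 on the same strand, so tags of the pair may be mixed.

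Nucleotide sugar carriers, which feed glycosylation in the Golgi, stayed within 2-fold of 0 h. Of 5 members, 1 rose and 3 fell at 6 h and none rose and 3 fell at 24 h. Slc35a3, the UDP-N-acetylglucosamine carrier, went from 91.4 ± 3.42 to 114.7 ± 5.32 CPM at 3 h and to 67.9 ± 4.31 CPM at 24 h. Gm43191 overlaps its 3′ end on the same strand.

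Of the 23 metal and haem carriers, 7 rose and 2 fell in WT at 3 h. At 6 h 8 rose and 8 fell, at 12 h 11 and 8, and at 24 h 11 and 7 did so. The class median at 24 h was -0.01, against -0.02 over all genes. In KO at 24 h, 11 rose and 7 fell.

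The copper carriers rose together. Slc31a1, CTR1, takes up copper at the plasma membrane, and Slc31a2, CTR2, is its intracellular relative. Slc31a2 stood at 49.9, 46.4, 46.4 and 56.1 CPM in WT before LPS, at 142.8, 124.1, 137.9 and 158.8 CPM at 3 h, then 306.3, 277.9, 295.3 and 322.6 CPM at 12 h and 266.1, 260.7, 249.6 and 287.2 CPM at 24 h. Every library after LPS lay above all libraries before it. The change was 1.49 ± 0.09 at 3 h (adjusted p = 1.2e-13), 2.37 ± 0.09 at 6 h, 2.59 ± 0.09 at 12 h and 2.41 ± 0.09 at 24 h.

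Slc31a1 stood at 120.3, 105.7, 123.4 and 118.2 CPM before LPS and at 511.9, 408.5, 402.4 and 406.5 CPM at 12 h (1.88 ± 0.09, adjusted p = 2e-16). Cdc26 overlaps its 3′ end on the opposite strand. In KO the 12 h means were 290.5 CPM for Slc31a2 and 448.7 CPM for Slc31a1. Both genes lie on chromosome 4, and their promoters are shown because the pair rose together, at chr4:62360451-62360700 for Slc31a1 and chr4:62286179-62286428 for Slc31a2, both on the plus strand. The RefSeq starts lie 26 and 20 bases upstream of the nearest GENCODE start.
Slc31a1: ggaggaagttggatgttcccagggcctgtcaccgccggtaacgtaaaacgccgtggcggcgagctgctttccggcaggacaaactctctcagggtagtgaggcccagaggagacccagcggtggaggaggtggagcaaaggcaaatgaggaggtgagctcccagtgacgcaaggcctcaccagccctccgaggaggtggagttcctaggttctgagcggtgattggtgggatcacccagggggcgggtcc
Slc31a2: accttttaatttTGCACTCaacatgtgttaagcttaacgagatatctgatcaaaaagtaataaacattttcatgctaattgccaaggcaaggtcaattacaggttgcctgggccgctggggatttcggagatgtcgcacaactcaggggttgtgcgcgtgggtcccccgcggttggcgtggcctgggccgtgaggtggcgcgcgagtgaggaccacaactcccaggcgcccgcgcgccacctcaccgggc
The capitals in Slc31a2 are letters of the metal response element, 238 to 232 bases before its start. Slc31a1 has none of the 8 motifs in this window.

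Of 12 listed copper and zinc handling genes outside the family, 10 were tested. In WT 3 rose and 1 fell at 3 h, while 4 were higher and 5 lower at 24 h. Atp7a, the copper pump that exports copper or loads it into vesicles, rose by 24 h (1.58 ± 0.11), and so did Atox1, the chaperone that hands copper to it (0.23 ± 0.09). Cox17 and Mtf1 were also higher in WT at 24 h, while Ccs, Sod1 and Steap3 were lower. In KO at 24 h neither Atox1 nor Sod1 was called. The metallothioneins Mt1 and Mt2, which buffer zinc and copper, rose at 3 h (0.54 ± 0.14 and 2.13 ± 0.18) and were lower at 24 h (-2.96 ± 0.16 and -2.33 ± 0.20).

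Zinc carriers differed in direction and timing. Slc30a1, ZnT1, the zinc exporter of the plasma membrane, was at 122.4 ± 4.54 CPM at 0 h and 116.1 ± 8.29 CPM at 3 h, and rose to 366.4 ± 34.7 CPM at 6 h (1.57 ± 0.07, adjusted p = 2.1e-16). Slc30a4, ZnT4, which loads zinc into vesicles, stood at 22.6, 23.8, 20.3 and 26.5 CPM before LPS, at 91.2, 105.6, 102.9 and 107.5 CPM at 6 h and at 15.9, 15.8, 13.8 and 12.6 CPM at 24 h. It thus rose early (2.12 ± 0.12 at 6 h, adjusted p = 2.9e-14) and ended under its start (-0.69 ± 0.14, adjusted p = 0.00015).

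Among zinc importers, Slc39a1, ZIP1, the most abundant of the class, rose from 234.3 ± 12.0 to 474.3 ± 15.2 CPM at 6 h (1.01 ± 0.07). Slc39a8, ZIP8, which takes up zinc and manganese, fell from 17.0 ± 2.61 to 3.43 ± 0.683 CPM at 24 h (-2.34 ± 0.19, adjusted p = 3.7e-11). Slc39a10, ZIP10, fell to 22.9 ± 2.61 CPM at 12 h from 43.2 ± 4.48 CPM and was at 42.0 ± 5.51 CPM at 24 h. Slc48a1, HRG1, which moves haem out of phagolysosomes, rose late, from 250.8 ± 8.28 to 510.9 ± 59.4 CPM at 24 h (1.02 ± 0.10, adjusted p = 4.9e-10).

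Carriers of inorganic ions held several of the deepest falls. Of 21 members, 7 rose and 2 fell at 3 h, 7 and 8 at 6 h, 8 and 8 at 12 h, and 5 and 9 at 24 h in WT. From 3 h to 24 h, 3 rose and 11 fell, and the class median of that step was -0.40, against -0.00171 over all genes. In KO at 24 h, 4 rose and 10 fell.

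Slc26a11, a sulphate carrier of lysosomes, stood at 51.6, 50.5, 49.02 and 45.3 CPM in WT before LPS and had dropped to 9.57, 7.91, 10.4 and 8.27 CPM by 3 h. The 6 h libraries held 2.56, 0.763, 2.13 and 0.507 CPM, and those of 24 h 9.96, 8.01, 11.1 and 11.5 CPM. Every library after LPS lay below every library before it. The change was -2.45 ± 0.15 at 3 h (adjusted p = 3.1e-13), -5.01 ± 0.22 at 6 h (adjusted p = 5.9e-17) and -2.27 ± 0.15 at 24 h. The KO mean at 6 h was 0.999 CPM.

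Slc9a9, a sodium-proton exchanger of endosomes, held 188.3, 157.9, 209.1 and 214.7 CPM before LPS and 17.5, 21.8, 26.6 and 28.5 CPM at 24 h (-3.02 ± 0.19, adjusted p = 2.3e-11). Slc12a2, the sodium-potassium-chloride importer NKCC1, fell from 26.4 ± 2.43 to 2.98 ± 0.517 CPM at 24 h (-3.15 ± 0.18, adjusted p = 5.5e-14). For both, the libraries of 3 h overlapped those of 0 h. Slc20a1, the sodium-phosphate carrier PiT1, fell from 208.1 ± 15.2 to 70.1 ± 7.98 CPM at 6 h.

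Other ion carriers rose. Slc4a7, the sodium-bicarbonate carrier NBCn1, rose early from 69.9 ± 4.35 to 273.0 ± 17.6 CPM at 3 h (1.96 ± 0.11, adjusted p = 7.1e-14) and was at 78.0 ± 12.1 CPM at 24 h. Slc12a9, a relative of the cation-chloride carriers, rose from 19.1 ± 0.885 to 103.5 ± 12.0 CPM at 12 h (2.43 ± 0.12). Slc26a2, the sulphate carrier of the plasma membrane, rose by 0.29 ± 0.09 at 3 h, with 87.0 ± 6.94 CPM at 0 h and 93.8 ± 6.22 CPM at 24 h.

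Of the 3 vesicular carriers, Slc17a5 and Slc17a9 fell at 24 h, and the monoamine carrier Slc18a1 was not called. Slc17a5, sialin, exports sialic acid from lysosomes and fell from 108.3 ± 7.03 to 52.9 ± 3.89 CPM (-1.03 ± 0.10, adjusted p = 5.1e-10).

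Mitochondrial carriers, the family that joins cytosolic and mitochondrial metabolism, had more falls than rises early and more rises than falls late. Of 34 members, 8 rose and 13 fell in WT at 3 h, 10 and 13 at 6 h, 12 and 7 at 12 h, and 15 and 8 at 24 h. Over all genes falls outnumbered rises at each of these times. The shares that rose and fell were 26.6% and 28.0% at 3 h and 31.0% and 37.1% at 6 h. They were 32.3% and 35.9% at 12 h and 34.5% and 35.4% at 24 h. The class median went from -0.11 at 3 h, where that of all genes was -0.05, to 0.24 at 24 h, where that of all genes was -0.02. In KO at 24 h, 16 rose and 11 fell.

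Slc25a22, a glutamate carrier, held 9.25, 5.26, 6.01 and 10.6 CPM in WT before LPS and 68.6, 75.5, 77.3 and 64.1 CPM at 6 h. The groups did not overlap (3.17 ± 0.20, adjusted p = 2.7e-12), and at 24 h the level was 33.4 ± 4.44 CPM. The aspartate-glutamate carriers of the malate-aspartate shuttle went opposite ways. Slc25a12, aralar, rose from 31.1 ± 1.15 to 120.6 ± 7.94 CPM at 12 h (1.95 ± 0.08, adjusted p = 2.8e-17), and Slc25a13, citrin, fell from 74.3 ± 1.69 to 25.2 ± 3.59 CPM (-1.56 ± 0.10, adjusted p = 7.4e-13).

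Slc25a37, mitoferrin-1, brings iron into mitochondria. It stood at 78.4, 78.4, 67.8 and 73.5 CPM before LPS, at 315.2, 324.1, 313.1 and 286.7 CPM at 3 h and at 95.3 ± 6.77 CPM at 24 h, a rise at 3 h of 2.05 ± 0.10 (adjusted p = 4.3e-16). Mitoferrin-2, Slc25a28, rose from 8.69 ± 0.898 to 16.9 ± 2.55 CPM at 24 h.

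Among other members of the class, picked here after their values were seen, some rose at 24 h: the citrate carrier Slc25a1 (0.59 ± 0.15), the dicarboxylate carrier Slc25a10 (0.77 ± 0.16), the oxoglutarate carrier Slc25a11 (0.55 ± 0.07) and the carnitine-acylcarnitine carrier Slc25a20 (0.72 ± 0.12). Slc25a51, the NAD carrier, fell at 6 h (-0.58 ± 0.07) and rose at 24 h (0.48 ± 0.07). The ornithine carrier Slc25a15 and the folate and flavin carrier Slc25a32 fell, by 1.06 ± 0.17 and 1.67 ± 0.14 on the log2 scale at 24 h. Slc25a40, a relative of the glutathione carrier Slc25a39, fell from 28.9 ± 2.17 to 14.3 ± 2.30 CPM at 3 h. Slc25a30 fell from 100.5 ± 2.25 to 33.9 ± 3.27 CPM at 6 h. Slc25a3, the phosphate carrier and the most abundant of the class, changed by no more than 0.19 ± 0.07 over the 4 times.

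Among carriers of organic acids, vitamins and organic ions, 5 of 22 were higher and 4 lower in WT at 3 h, 5 and 10 at 6 h, and 8 and 8 at both 12 h and 24 h. Slc44a1, the choline carrier CTL1, rose from 53.7 ± 2.21 to 236.7 ± 8.01 CPM at 6 h (2.13 ± 0.07, adjusted p = 2.9e-19). Slc13a3, the sodium-dicarboxylate carrier NaDC3, rose at all 4 times, to 8.30, 10.9, 13.8 and 18.4 CPM at 24 h from 1.22, 0.658, 0.812 and 2.49 CPM (3.27 ± 0.32, adjusted p = 1.4e-09). Slc13a3 averaged under 2 CPM at 0 h, so this rise is partly set by the limit for members. Slc23a2, a vitamin C carrier, rose from 80.3 ± 5.16 to 205.9 ± 32.7 CPM at 6 h.

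Slc16a6, of the monocarboxylate family, stood at 118.1, 107.7, 110.4 and 114.5 CPM before LPS, at 51.1, 35.6, 37.5 and 51.4 CPM at 6 h and at 323.0, 309.2, 323.7 and 412.5 CPM at 24 h. The 3 groups did not overlap, so that it fell first (-1.36 ± 0.14, adjusted p = 2.8e-08) and rose later (1.60 ± 0.13, adjusted p = 4.1e-10). Slc16a1, the lactate and pyruvate carrier MCT1, fell from 26.3 ± 1.85 to 9.08 ± 0.685 CPM at 24 h (-1.53 ± 0.14). The thiamine carrier Slc19a2 fell from 10.1 ± 0.388 to 1.84 ± 0.832 CPM at 6 h and was at 10.2 ± 3.30 CPM at 24 h. The folate carriers Slc19a1 and Slc46a1 fell at 12 h (-1.75 ± 0.21 and -0.79 ± 0.27).

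Lipid carriers were few. Slc27a1, a fatty acid carrier, fell from 54.1 ± 3.95 to 37.7 ± 3.68 CPM at 6 h, and Slc33a1, which takes acetyl-CoA into the endoplasmic reticulum, fell from 41.1 ± 3.64 to 27.4 ± 4.09 CPM at 24 h. Of the genes that encode no transporter, Slc9a3r1, the scaffold NHERF1, rose from 46.9 ± 3.21 to 74.6 ± 5.60 CPM at 12 h (0.66 ± 0.10).

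Carriers and partner proteins outside the named symbols, 35 listed and 31 tested in WT, also went both ways. At 3 h 4 rose and 10 fell, and at 24 h 8 rose and 12 fell. Slco3a1, an organic anion carrier, had the steepest values among those named here, 3.67 ± 0.22 at 3 h and 4.41 ± 0.22 at 24 h. Unc93b1, which escorts endosomal Toll-like receptors, rose by 24 h (1.22 ± 0.07), and Ctns, the lysosomal cystine exporter, fell (-0.70 ± 0.13).

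Between genotypes, Slc28a2 at 6 h was the only member called. No member passed edgeR's test at 0 h (148 tested; all genes 0.0% called), 3 h (149 tested; all genes 0.689% called, 0.362% higher and 0.326% lower), 12 h (144 tested; 0.0464%, 0.0371% and 0.00927%) or 24 h (148 tested; 0.0809%, 0.0539% and 0.027%). At an unadjusted p under 0.05 stood 9 members at 0 h, 10 at 3 h, 13 at 6 h, 11 at 12 h and 9 at 24 h. DESeq2 called 0 members at 0, 3, 12 and 24 h. KO and WT did not overlap for 7 members at 0 h, 3 at 3 h, 8 at 6 h, 8 at 12 h and 9 at 24 h, where 5.02%, 6.24%, 7.81%, 5.03% and 4.41% of all genes did not overlap.

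Without WT replicate 4 the 6 h count was 2, because Slc43a3 was then called lower in KO (-0.55 ± 0.13, adjusted p = 0.046). With all libraries Slc43a3 averaged 30.8 ± 5.12 CPM (KO) and 41.7 ± 6.88 CPM (WT) at 6 h (adjusted p = 0.17). Next in order of p at 6 h came Slc6a8, with means of 90.6 ± 7.48 CPM (KO) and 72.6 ± 7.41 CPM (WT) (adjusted p = 0.18). Its KO mean was above its WT mean at all 5 times, and the genotypes also did not overlap at 24 h (89.6 ± 7.50 and 74.1 ± 5.03 CPM, adjusted p = 0.40).

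The smallest p-values at the other times belonged to members whose difference did not pass. At 0 h these were Slc22a18, with 3.88 ± 0.907 CPM in KO and 2.22 ± 0.182 CPM in WT (adjusted p = 0.43), Slc46a1 with 8.04 ± 0.816 and 5.94 ± 0.535 CPM (adjusted p = 0.54), and Slc25a40 with 24.0 ± 2.67 and 28.9 ± 2.17 CPM. At 3 h they were Slc27a1 (50.01 ± 4.84 and 41.6 ± 2.84 CPM, adjusted p = 0.22), Slc37a2 (74.4 ± 7.36 and 62.2 ± 6.54 CPM) and Slc7a7 (14.7 ± 3.91 and 19.6 ± 1.73 CPM). At 12 h they were Slc39a10 (30.1 ± 2.92 and 22.9 ± 2.61 CPM, adjusted p = 0.44), Slc43a3 (28.6 ± 3.45 and 36.2 ± 2.95 CPM) and Slc6a19 (5.78 ± 1.07 and 3.24 ± 1.05 CPM). At 24 h they were Slc25a40 (17.3 ± 3.87 and 24.9 ± 0.452 CPM, adjusted p = 0.24), Slc25a30 (104.5 ± 9.66 and 83.0 ± 10.8 CPM) and Slc26a2 (79.3 ± 2.64 and 93.8 ± 6.22 CPM).

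**Figure D4:**
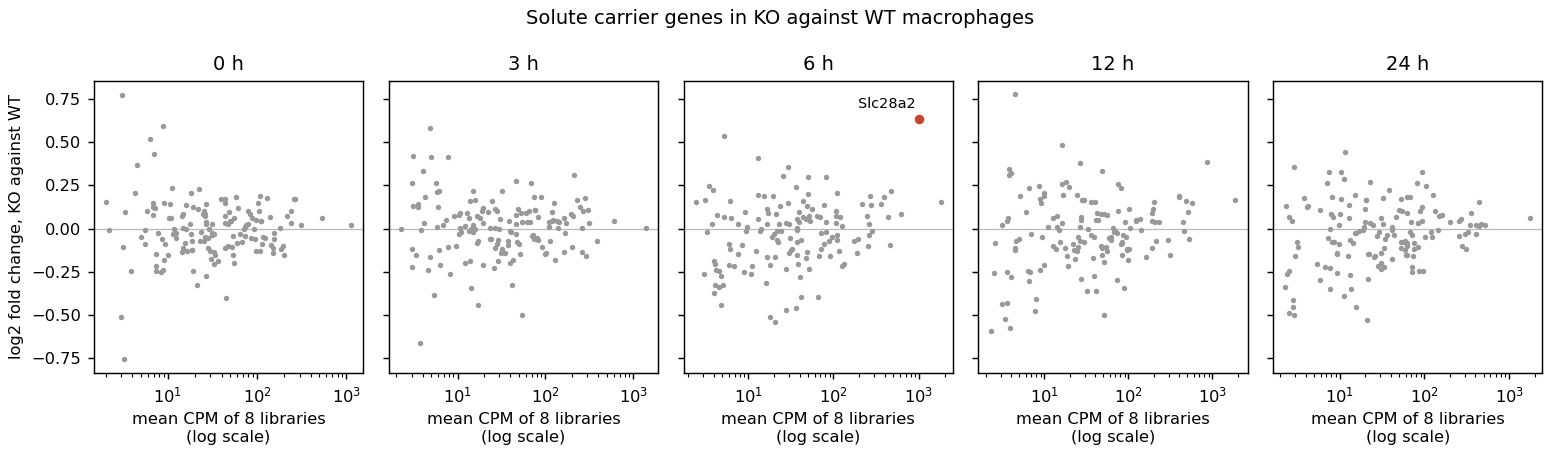
Log2 fold change of solute carrier genes in KO against WT at each time (vertical axis) against the mean CPM of the 8 libraries (horizontal axis, log scale). Grey points did not pass the test, and the red point is Slc28a2 at 6 h, at 0.64. No tested member differs by as much as 1 on the log2 scale at any time.

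The response to LPS itself was not called different between genotypes for any member. The interaction tests called 0 of 150 members at 3 h, 0 of 152 at 6 h, 0 of 154 at 12 h and 0 of 154 at 24 h, with edgeR and with DESeq2 alike, where 0.0%, 0.0%, 0.0% and 0.00818% of all genes were called. An unadjusted p under 0.05 was reached by 2, 6, 1 and 3 members. The median absolute difference between the KO and WT log2 responses of a member was 0.09 at 3 h, 0.12 at 6 h, 0.11 at 12 h and 0.11 at 24 h. The largest for any member was 1.13 at 3 h, 0.79 at 6 h, 0.96 at 12 h and 1.65 at 24 h. That of 24 h belonged to a member with 3 counts in WT and 1 in KO at that time. None of the 3 related lists, of other carriers, the amino acid response and copper and zinc handling, had a member called between genotypes at any time.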

How the data were processed

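Gene expression was measured by QuantSeq 3′ mRNA-Seq (FWD) in 40 libraries. The authors deposited expected counts in a single table with Ensembl identifiers and no normalization. Tools named in the submitters' processing notes are STAR 2.7.10a, RSEM 1.3.3, UMI-tools 1.1.2, cutadapt 3.7 and FastQC 0.11.9, with the build GRCm39. Which annotation was used, whether strand was used and how molecular identifiers were treated is not given in the sources used here. All expected counts were whole numbers, so rounding changed nothing.

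Of 57010 identifiers 52029 received a symbol from GENCODE vM21 (GRCm38), which also gave overlapping genes. Promoter windows came from RefSeq (GRCm38.p6); their coordinates are of that build, not of the table. Plain CPM set membership, and TMM-scaled CPM are printed.

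Tests used edgeR 4.0.16 in R 4.3.3 (TMM, filterByExpr with a minimum count of 10, robust quasi-likelihood fit, two-sided, Benjamini-Hochberg adjustment over all genes tested). LPS was tested in the 20 libraries of a genotype, KO against WT in the 8 libraries of a time, and the interaction in the 16 libraries of 0 h and a later time. The SE of a log2 fold change is its size divided by the root of the F statistic. Fits were tested on simulated counts. DESeq2 1.42.0, other scaling, no filter, a fit of all 40 libraries, the replicate block, sex and leaving out libraries were alternatives. At the lowest total 2 CPM is few counts, so low members are measured less precisely.

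The members and lists were chosen with earlier results of these data known. The rule for naming takes Slc3a2, Slc15a3 and Slc31a2; the 5 highest and 5 lowest called WT changes at each time with a mean of 5 CPM or more; members called between genotypes; the 3 smallest p in each KO comparison; and the most abundant member of each class, 39 genes in all. Other members are examples of their class chosen after their values were seen, as are the related genes named.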

Additional observations from a re-analysis of the deposited data

Results flagged for a closer look

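Each group of 4 libraries was checked for a library whose gap to the nearest other exceeds Dixon's 95% limit. Of 390 groups checked 17 held such a library, or 4.36%, and chance gives about 1 in 20, so the number is near what chance gives.

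Replicate 1 held several of the outlying values. In KO these were Slc22a18 at 12 h (2.488 CPM), Slc25a3 at 0 h (616.1 CPM), Slc25a37 at 6 h (99.15 CPM), Slc26a2 at 0 h (59.6 CPM) and Slc2a6 at 3 h (102.7 CPM). In WT they were Slc19a2 at 12 h (6.997 CPM), Slc39a1 at 24 h (352.1 CPM) and Slc7a7 at 24 h (25.14 CPM). Replicate 2 stood apart for Slc30a4 (72.15 CPM) and Slc9a9 (237.6 CPM) in KO at 3 h, and for Slc6a4 in WT at 0 h (0.1645 CPM, a single count). Replicate 3 stood apart in KO for Slc26a2 (83.26 CPM) and Slc37a2 (114.4 CPM) at 24 h and for Slc6a4 at 0 h (0.1858 CPM, a single count). Replicate 4 stood apart for Slc12a2 (6.339 CPM) and Slc43a3 (23.15 CPM) in KO at 6 h and for Slc46a1 in WT at 3 h (2.402 CPM).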

How the results depend on the processing

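Every count of called members for LPS stayed within 1.5 times its value under each alternative run, and the share of higher against lower calls moved by less than 10 percentage points. Of 45 results of single members by the naming rule 44 were called in the same direction throughout and 0 reversed. The exception was Slc28a2 in KO against WT at 6 h, 0.65 with an adjusted p of 0.084 in 1 fit of all 40 libraries, which left 0 members called at 6 h; its adjusted p over the alternatives ran from 7.2e-14 to 0.084. The cause was not tested. With no filter on low counts 4 members were called at 6 h (1 higher, 3 lower: Slc7a7, Slc43a3 and Slc38a6) and 1 at 24 h (Slc25a40).

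Each replicate number of a genotype was left out in turn, with all its libraries in a fit. This gave 70 to 76 called members in WT at 3 h, 99 to 107 at 6 h, 99 to 112 at 12 h, 106 to 110 at 24 h and 95 to 102 from 3 h to 24 h. In KO it gave 57 to 67, 88 to 104, 98 to 110, 107 to 113 and 100 to 103. Between genotypes it gave 1 to 2 at 6 h and 0 at the other times and in the interactions.

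Replicates share numbers across groups. Within a genotype the number went with sex at all 5 times (by Xist, replicate 3 of KO and replicate 4 of WT were male), and same-numbered libraries deviated together, with median correlations of 0.0701 to 0.273 over a range of -0.0879 to 0.441. That hints that a number is 1 animal within a genotype, which the labels do not say. Between genotypes the correlations were -0.233 to 0.133, so numbers do not pair KO with WT. With the replicate block, 88 members were called in WT at 3 h, 120 in WT at 24 h and 72 in KO at 3 h. Between genotypes the block pairs KO with WT by number, which the correlations do not bear out. It called 1 member at 6 h, Slc28a2 with an adjusted p of 0.0070, which is therefore no check of that call. With sex as a covariate the adjusted p of Slc28a2 was 0.0029, and without the male libraries 0.011. A limit of 1 CPM would give 161 members and of 5 CPM 134. Depth limits the low members.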
